A study of Mus musculus with 912 samples.

Results

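The neurotrophin system was followed here through 6 genes, the ligands Bdnf and Ntf3, the receptors Ntrk2, Ntrk3 and Ngfr, and Vgf, whose product is a secreted neuropeptide precursor. They were taken as named genes of the system and are 6 of the 42772 genes with a value in the count tables. In the mm10 gene models Bdnf lies at chr2:109674700-109727007 on the plus strand, Ntf3 at chr6:126101412-126166910 on the minus strand, Ntrk2 at chr13:58806569-59133970 on the plus strand, Ntrk3 at chr7:78175959-78738012 on the minus strand, Ngfr at chr11:95568818-95587735 on the minus strand and Vgf at chr5:137026392-137033351 on the plus strand.

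Neurotrophins are secreted growth factors that act on neuronal survival, dendrites and synapses. Bdnf encodes brain-derived neurotrophic factor, which signals through the tyrosine kinase TrkB (Ntrk2), and its transcription rises with neuronal activity from several alternative promoters. Ntf3 encodes neurotrophin-3, whose main receptor is TrkC (Ntrk3), while Ngfr encodes p75, which binds all neurotrophins and their uncleaved precursors. In the adult hippocampus Bdnf protein is known to be abundant in the mossy fibres that granule cells of the dentate gyrus (DG) send to CA3.

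The study sequenced single nuclei from the hippocampus of female C57BL6 mice aged 7.75 to 9 weeks. Some mouse numbers of the 4 h, A>A and A>C groups described below carry more than 1 age label. Mice of these groups are counted by number, and whether each is a single animal is not known. HC and 1 h nuclei were sorted on NEUN, PROX1, CTIP2 and FOS protein and the later DG nuclei on PROX1, CTIP2, ARC and FOS, and each was sequenced as its own full-length library. Mice stayed in the home cage (HC) or explored an unfamiliar environment for 15 min and were returned to the home cage until 1 h later. In the later DG experiments nuclei were taken 4 h or 5 h after 1 exposure to environment A (FOS-), or 1 h after a second 15 min exposure, 4 h after the first, to the same environment (A>A) or to another (A>C), as FOS+ and FOS- nuclei. No mutation, transgene or drug was used in any group, so the activity label was a stained protein. All 552 nuclei of the later experiments were labelled ARC+, and the HC and 1 h nuclei carry no ARC label. Comparisons of 4 h or 5 h nuclei with HC nuclei therefore set ARC-gated against ungated nuclei from other dates, and time after exposure, gate and date cannot be told apart. The same holds for the library date of HC and 1 h DG nuclei.

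Of 912 nuclei, 818 had at least 100000 aligned reads and 4000 detected genes. The 35 HC and 1 h FOS- nuclei with an Arc level above 2.5 were also left out, which left 783. Totals of the estimated counts over all genes ran from 142275 to 5885220 per nucleus, with a median of 1251690. Cell types (DG, CA1, CA3, subiculum (Sub), VIP, Pvalb, Ivy and Th) are the predictions given in the labels. For HC and 1 h nuclei the paper made them from expression, so differences between cell types are not independent of them. The later nuclei were sorted as DG on PROX1 and CTIP2 protein. Among the 78 HC and 1 h DG nuclei, 91.0% held the DG marker Prox1 above a log2(TPM+1) of 1, 60.3% C1ql2, 21.8% Dsp and 1.28% the interneuron gene Gad2. Among the 480 later DG nuclei the shares were 85.8% for Prox1, 59.2% for C1ql2, 8.54% for Dsp and 11.7% for Gad2. Among 66 VIP nuclei, 90.9% held Vip, 93.9% Gad2, 69.7% Prox1 and none C1ql2 or Dsp. Gad1 was above 1 in 55.1% of the DG nuclei and the subiculum marker Fn1 in nearly every type, so neither separated the types, nor did Prox1 separate DG from VIP nuclei.

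Levels are given as log2(TPM+1), where TPM is RSEM's length-corrected transcript share, a scale that allows for gene length. They were averaged over the nuclei of a mouse, and then over mice with at least 2 nuclei. Differences were tested with edgeR's quasi-likelihood test on counts summed per mouse and group, with Benjamini-Hochberg adjustment over all genes tested and a threshold of 0.05. These counts cover whole genes and do not tell Bdnf promoters, or full-length from truncated TrkB, apart.

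Promoter sequences of Bdnf are shown because the gene is transcribed from alternative starts, each with its own promoter, which the gene counts add together. RefSeq (GRCm38.p6) holds 7 Bdnf starts. The 250 bases before each were searched on both strands for the cyclic AMP response element (CRE) TGACGTCA and its half-site TGACG, which the full element contains. They were also searched for the loose AP-1 pattern TGANTCA, where N was any base. Across 32851 promoters of this length, 1.55% held the CRE, 17.8% the half-site and 6.75% the AP-1 letters. Among the Bdnf starts 1 window held AP-1 letters and 1 a half-site, both printed here 5′ to 3′ with the matching letters in capitals.
Bdnf start 2, chr2:109676782-109677031, plus strand: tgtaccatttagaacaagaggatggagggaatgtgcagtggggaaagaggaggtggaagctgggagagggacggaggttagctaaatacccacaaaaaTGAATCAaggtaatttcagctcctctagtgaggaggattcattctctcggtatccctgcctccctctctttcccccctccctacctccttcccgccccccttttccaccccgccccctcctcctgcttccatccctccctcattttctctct
Bdnf start 3, chr2:109692186-109692435, plus strand: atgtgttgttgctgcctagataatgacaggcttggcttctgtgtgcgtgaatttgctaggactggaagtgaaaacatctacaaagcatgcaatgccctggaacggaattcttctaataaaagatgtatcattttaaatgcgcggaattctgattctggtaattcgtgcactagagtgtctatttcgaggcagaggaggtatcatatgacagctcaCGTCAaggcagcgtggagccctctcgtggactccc
The AP-1 letters begin 152 bases before start 2 and have A at the free base N. The half-site, read as CGTCA on the plus strand, begins 35 bases before start 3. Both windows lie outside annotated exons. The windows of the other 5 Bdnf starts, of both Ntf3 starts and of the single Ntrk2 and Ngfr starts held none of the motifs, and no window held the full CRE. A match is a string of letters and not a measured binding site. Ntrk3 and Vgf had no entry in the table used.

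Bdnf had the highest level of the members in every DG group but the 1 h FOS- nuclei, and in the home cage its level already differed between hippocampal cell types. In HC DG nuclei it was 6.02 in mouse 6 (18 nuclei) and 5.06 in mouse 7 (5 nuclei), and 24 of 25 nuclei held reads, 2 other mice having given 1 nucleus each. In HC CA1 nuclei, the pyramidal cells of field CA1, it was 1.78, 0.24 and 2.14 in 3 mice, with 8 of 19 nuclei counted. DG and CA1 mice did not overlap. In HC VIP interneurons 1 of 22 nuclei held a single read (4.55%, exact 95% interval 0.115 to 22.8). As pooled CPM (counts scaled to the group's total) the HC DG level was 5104 times that of VIP nuclei. Its counting interval of 916 to 201604 rests on this 1 read and takes the DG level as exact. Bdnf was higher in HC DG than in HC VIP nuclei by edgeR (adjusted p = 0.00935), in a comparison that called 0.12% of 22532 genes. The call was kept in 9 of 13 fits that left out a mouse, with adjusted p between 0.00544 and 0.0767. HC DG and HC CA1 differed by 4.57 ± 1.43 on the log2 scale (SE, edgeR adjusted p = 0.797), which did not pass, in a comparison that called 0.0311% of genes. The VIP and CA1 difference did not pass either (adjusted p = 0.11, with 0.0666% of genes called).

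**Figure D1:**
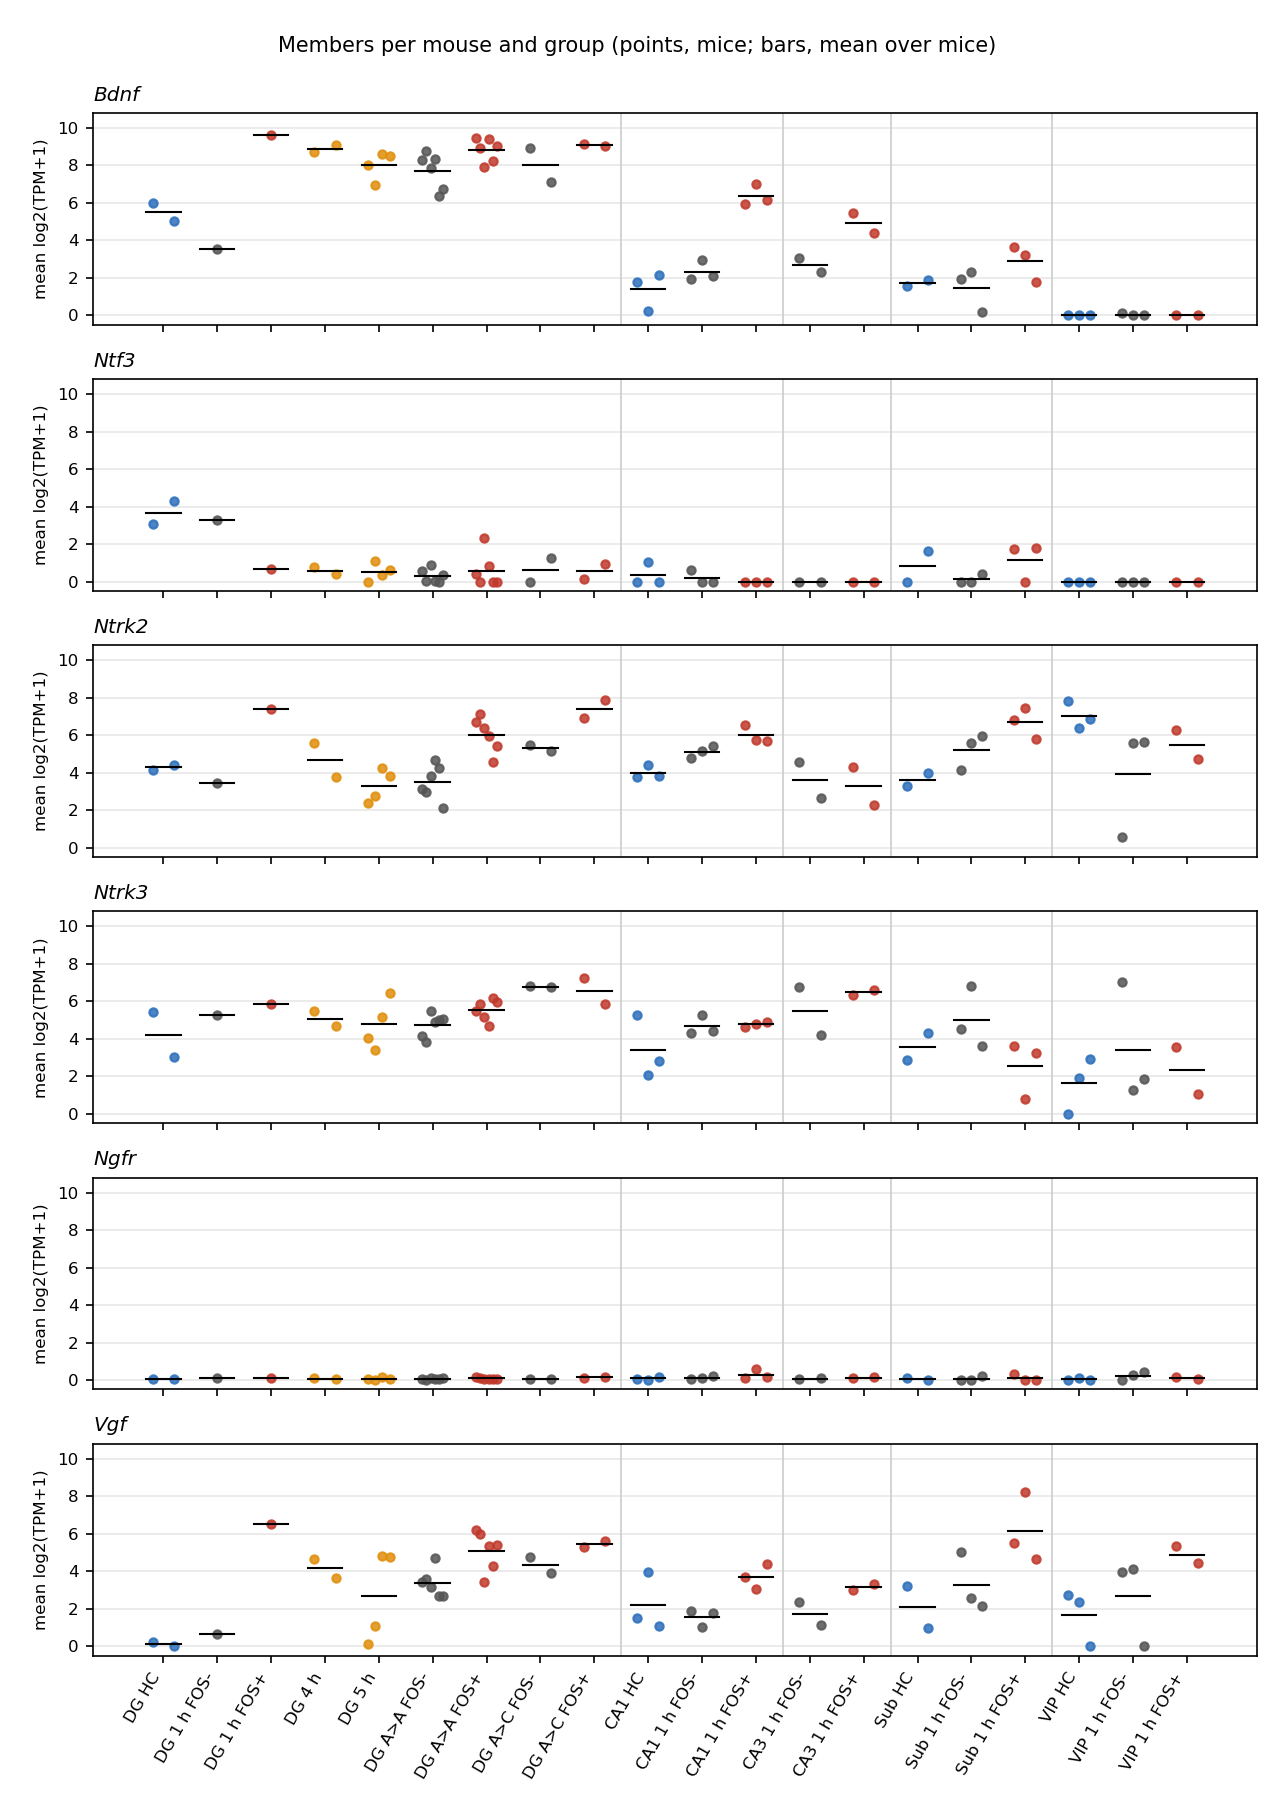
Mean log2(TPM+1) of each of the 6 members per mouse over the groups of DG, CA1, CA3, Sub and VIP nuclei with at least 2 nuclei in a mouse, 1 panel per gene. HC CA3 is not drawn. Points are mice, bars are means over mice, and colours mark HC (blue), FOS- (grey), 4 h and 5 h (orange) and FOS+ (red) nuclei. Bdnf is near 0 in VIP nuclei whatever their FOS state and reaches 9.62 in 1 h FOS+ DG nuclei, whereas Ntf3 is high in HC and 1 h FOS- DG nuclei and near 0 in nearly all others.

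One hour after exposure Bdnf was far higher in FOS+ than in FOS- DG nuclei. All 26 FOS+ nuclei held it, from 4.83 to 11.24 with a median of 9.83, and their mean was 9.62. The 27 FOS- nuclei had a mean of 3.55 and a median of 1.09, and 11 of them (40.7%) exceeded a level of 5. The groups overlapped, since the highest FOS- nucleus was at 9.44 and the lower quartile of the FOS+ nuclei at 9.21. Both groups came from the same single mouse, so the contrast has no second mouse behind it and its spread was taken from the other DG groups of the fit. Summed counts as TMM-scaled CPM were 2822 in FOS+ and 240 in FOS- nuclei, against 386 and 352 in the HC mice. Bdnf rose by 3.56 ± 0.64 log2 against FOS- nuclei (SE, edgeR adjusted p = 0.0413), where 0.0451% of 24405 genes were called. With the mouse as a block, over mice that gave both FOS states, the difference was 3.56 ± 0.41 and did not pass (edgeR adjusted p = 0.351). It passed in 11 of 20 fits that left out a mouse (adjusted p from 0.0331 to 0.107).

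Against HC nuclei Bdnf rose by 2.94 ± 0.48 log2 in 1 h FOS+ DG nuclei (edgeR adjusted p = 0.00665), where 0.27% of genes were called. It passed in 19 of 20 fits that left out a mouse, and not without HC mouse 7 (adjusted p = 0.129). The FOS- nuclei of the exposed mouse differed from HC by -0.62 ± 0.51 (edgeR adjusted p = 1), in a comparison that called 0.0041% of genes. Counting only nuclei with at least 200000 reads and 5000 genes, which left 19 of 26 FOS+ and 19 of 23 HC nuclei in the sums, neither FOS+ difference passed. These were 3.21 against FOS- (adjusted p = 1) and 2.51 against HC (adjusted p = 0.447).

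In CA1 the FOS+ nuclei also held more Bdnf, and every one of the 3 mice showed it by nearly the same amount. FOS- levels were 1.93, 2.98 and 2.10, and FOS+ levels 5.97, 7.01 and 6.18, a within-mouse difference of 4.03, 4.03 and 4.08. The FOS+ and FOS- mice did not overlap, and 29 of 33 FOS+ nuclei were counted. The summed counts differed by 3.34 ± 1.15 log2, which did not pass (edgeR adjusted p = 1). No gene was called in CA1 FOS+ against FOS- (0% of 14507, with 629 at an unadjusted p under 0.05, 220 called by DESeq2 and 0 by limma). The same was true of FOS+ against HC (0%, with 696 genes at an unadjusted p under 0.05, 244 by DESeq2 and 0 by limma), where Bdnf differed by 5.03 ± 1.25 (edgeR adjusted p = 0.998). The mean level of the 3 CA1 markers was 4.02 in HC, 2.38 in FOS- and 2.05 in FOS+ CA1 nuclei, and that of the 3 CA3 markers 0.40, 1.10 and 1.64. Their part in the Bdnf differences was not tested. The difference between the DG and CA1 responses of Bdnf was 0.26 ± 2.39 log2 (edgeR adjusted p = 1, with 0.00444% of genes called), an interval too wide to rank the types.

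In CA3 pyramidal cells Bdnf was 3.05 and 2.33 in FOS- and 5.46 and 4.40 in FOS+ nuclei of the same 2 mice. In Sub it was 1.92, 2.32 and 0.19 in FOS- and 3.64, 3.24 and 1.81 in FOS+ nuclei of 3 mice. FOS+ was the higher in all 5 of these within-mouse pairs, with the smallest difference 0.92. By edgeR the CA3 difference was 1.89 ± 0.81 log2 (adjusted p = 0.798) and that in Sub 0.94 ± 1.54 (adjusted p = 1). Neither comparison called a gene (0% of 17179 in CA3, with 687 at an unadjusted p under 0.05, 414 by DESeq2 and 0 by limma, and 0% of 14071 in Sub, with 944, 413 and 0).

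FOS+ VIP interneurons held no Bdnf. None of 27 nuclei had a read, which allows a share of up to 12.8% (exact 95% interval, counting error only), and 1 of 17 FOS- nuclei had one. With 3 counts set for the VIP group, pooled Bdnf was 17084-fold higher in 1 h FOS+ DG nuclei and 3899-fold higher in FOS+ CA1 nuclei. The lower 95% counting limits were 13894-fold and 3171-fold, with the DG and CA1 levels taken as exact. The median count total of FOS+ VIP nuclei, 599311, was under that of the FOS+ DG nuclei, 1462220. Bdnf was too low for the VIP fit, which called 0 genes (0% of 14736, with 713 at an unadjusted p under 0.05, 173 by DESeq2 and 0 by limma). In the fit over all types the DG and VIP responses of Bdnf differed by 6.66 ± 3.30 log2 (edgeR adjusted p = 1, with 0.00888% of genes called). No Ivy nucleus of 12 and no Th nucleus of 7 held Bdnf, and Pvalb levels reached at most 0.90 in a mouse.

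In the DG Bdnf stayed high in the ARC+ FOS- nuclei taken 4 h and 5 h after exposure. It was 8.69 and 9.08 in the 4 h mice and 8.05, 6.94, 8.60 and 8.52 in the 5 h mice. All 6 mice lay above both HC mice, and below the 9.62 of the 1 h FOS+ mouse. Against HC Bdnf rose by 2.63 ± 0.43 log2 at 4 h (edgeR adjusted p = 0.00607, with 0.246% of genes called) and by 2.09 ± 0.39 at 5 h (adjusted p = 0.0237, with 0.262% called). The 4 h call was lost without HC mouse 7 (adjusted p = 0.164) or the 4 h mouse 21 (0.08), and the 5 h call without HC mouse 6 (0.0756) or 7 (0.303). With the stricter nucleus filter it was 1.83 at 4 h (adjusted p = 0.938) and 1.70 at 5 h (0.836), neither past the threshold. That filter kept 46 of 68 nuclei at 4 h and 31 of 59 at 5 h, where mice 22 and 23 kept none and 2 of 4 mice were left.

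**Figure D2:**
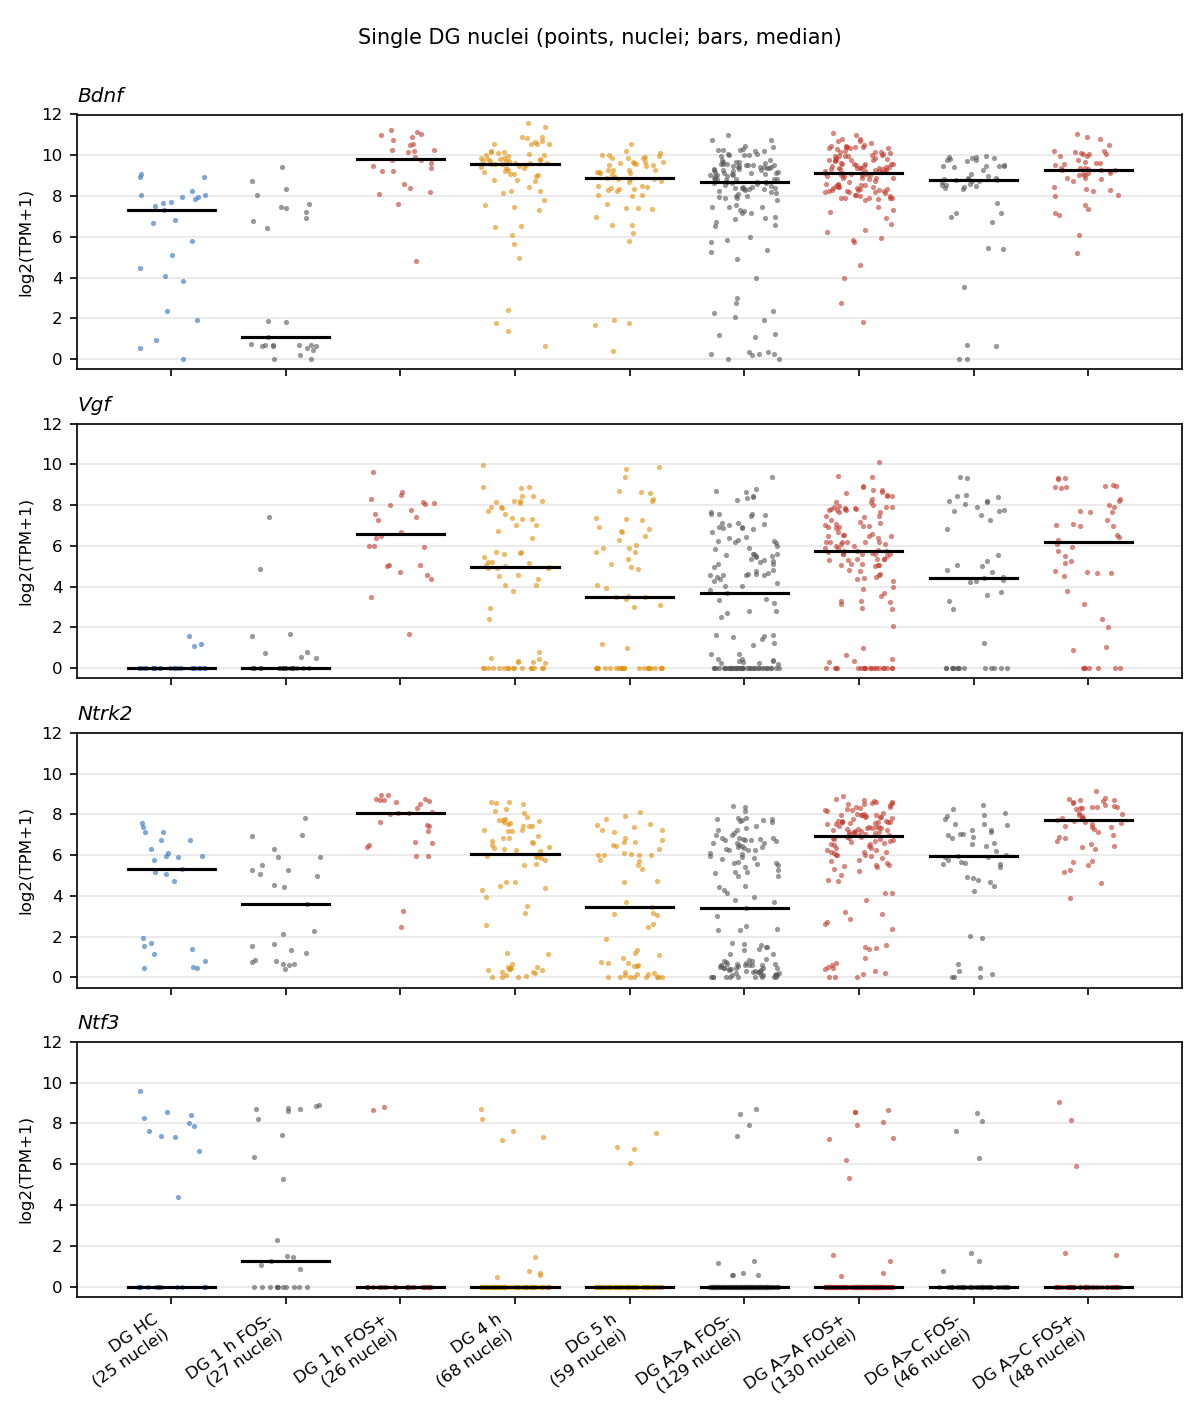
Bdnf, Vgf, Ntrk2 and Ntf3 in single DG nuclei, as log2(TPM+1), in the 9 DG groups. Each point is a nucleus and each bar the group's median. The Bdnf median is 1.09 in 1 h FOS- and 9.83 in 1 h FOS+ nuclei, and nuclei with Ntf3 gather in the HC and 1 h FOS- groups.

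Ntf3, the other ligand, was read mostly from DG nuclei of the HC and 1 h FOS- groups. In the home cage it was 3.05 and 4.28 in mice 6 and 7, with 11 of 25 nuclei counted (44%, exact 95% interval 24.4 to 65.1). At 1 h it was 3.27 in FOS- nuclei, with 16 of 27 counted (59.3%), and 0.67 in FOS+ nuclei of the same mouse, with 2 of 26 counted (7.69%, interval 0.946 to 25.1). In the later DG groups it averaged 0.31 to 0.64, and 6.78% to 15.2% of nuclei were counted. Thinned to 100000 counts, 10 of 27 1 h FOS- nuclei and 2 of 26 FOS+ nuclei still held it.

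The sums of counts gave no call for Ntf3, and the mean logs did. By edgeR it differed by -1.19 ± 5.04 log2 between 1 h FOS+ and FOS- nuclei (adjusted p = 1) and by -1.50 ± 4.63 between FOS+ and HC nuclei. On the mean log2(TPM+1) per mouse, limma gave a fall of 2.99 ± 0.73 in 1 h FOS+ nuclei against HC (adjusted p = 0.0187, with 4.39% of 12388 genes called). It fell by 3.08 at 4 h (adjusted p = 0.00386, with 4.55% called) and by 3.14 at 5 h (adjusted p = 0.000309, with 12.2% called). The difference between FOS+ and FOS- nuclei, -2.60, did not pass in limma (adjusted p = 0.16). Which difference between these fits decides the call was not tested. Outside the DG it was counted in at most 1 CA1 nucleus of any group and in no FOS+ CA1 nucleus of 33. No CA3 or VIP nucleus held it. In Sub it was counted in 3 of 11 FOS+ (27.3%), 1 of 12 FOS- and 1 of 10 HC nuclei, with a highest group mean of 1.17. It was also counted in 1 of 7 FOS- and 1 of 2 FOS+ Ivy nuclei.

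Ntrk2, the receptor of BDNF, was higher in FOS+ than FOS- DG nuclei after each kind of exposure. In the home cage it was 4.15 and 4.43. At 1 h it was 3.46 in FOS- nuclei and 7.41 in FOS+ nuclei, where all 26 nuclei were above a level of 1. Summed counts differed by 3.20 ± 0.75 log2, which did not pass in edgeR (adjusted p = 0.243), and passed in DESeq2 (3.13 ± 0.76, adjusted p = 0.00157), which called 6.12% of 17152 genes. At 4 h Ntrk2 was 5.59 and 3.77, and at 5 h it averaged 3.30 ± 0.90 (SD, n = 4 mice), so these mice lay on both sides of the HC level. Against HC the 4 h difference was 0.81 ± 0.49 and the 5 h difference -0.12 ± 0.42 log2 (SE, edgeR), neither past the threshold.

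Ntrk2 is also an astrocyte gene, so astrocyte markers are given beside it. Over 78 HC and 1 h DG nuclei, Aqp4 was above 1 in 0, Aldh1l1 in 1, Gja1 in 4, Gfap in 7 and Slc1a3 in 45. The mean over the 5 genes was 0.34 in 1 h FOS+ and 0.88 in 1 h FOS- nuclei, and lay between 0.50 and 0.66 in the other DG groups. After A>A the FOS+ nuclei had 0.54 and the FOS- nuclei 0.56, and after A>C 0.59 and 0.51. Its part in the Ntrk2 differences was not tested.

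After a second exposure to the same environment the mice were numerous enough for an exact test. In A>A FOS+ nuclei Ntrk2 was 6.69, 7.15, 6.41, 5.96, 4.57 and 5.40 in mice 15, 16, 24, 25, 26 and 27. In A>A FOS- nuclei it was 3.15, 2.97, 3.82, 4.67, 4.25 and 2.11 in mice 19, 20, 24, 25, 26 and 27. The groups overlapped by 1 mouse, the lowest FOS+ value being just under the highest FOS- value. The means differed by 2.53 (6.03 ± 0.94 against 3.49 ± 0.94, SD, n = 6 each, exact two-sided permutation p = 0.00433, smallest possible 0.00216). This was 1 of 6 such tests, and limma over all genes gave an adjusted p of 0.00434, with 2.76% of genes called. By edgeR the sums differed by 1.23 ± 0.29 log2 and did not pass (adjusted p = 0.153, with 0.041% of genes called), and DESeq2 called it (1.24, adjusted p = 0.00285, with 4.53% of genes called).

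The exact test took the mice as independent, although mice 24 to 27 gave nuclei of both FOS states. Mice 15 and 16 gave FOS+ nuclei alone and mice 19 and 20 FOS- nuclei alone, on other library dates. Within mice 24 to 27, whose FOS+ and FOS- libraries share a date, Ntrk2 was higher in FOS+ nuclei in 4 of 4, by 2.58, 1.29, 0.32 and 3.30. Their mean was 1.87, and the exact sign-flip permutation p of 0.125 is the smallest that 4 pairs allow. Without each of the 8 mice in turn, the unpaired exact permutation p of Ntrk2 stayed between 0.00649 and 0.0159.

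**Figure D3:**
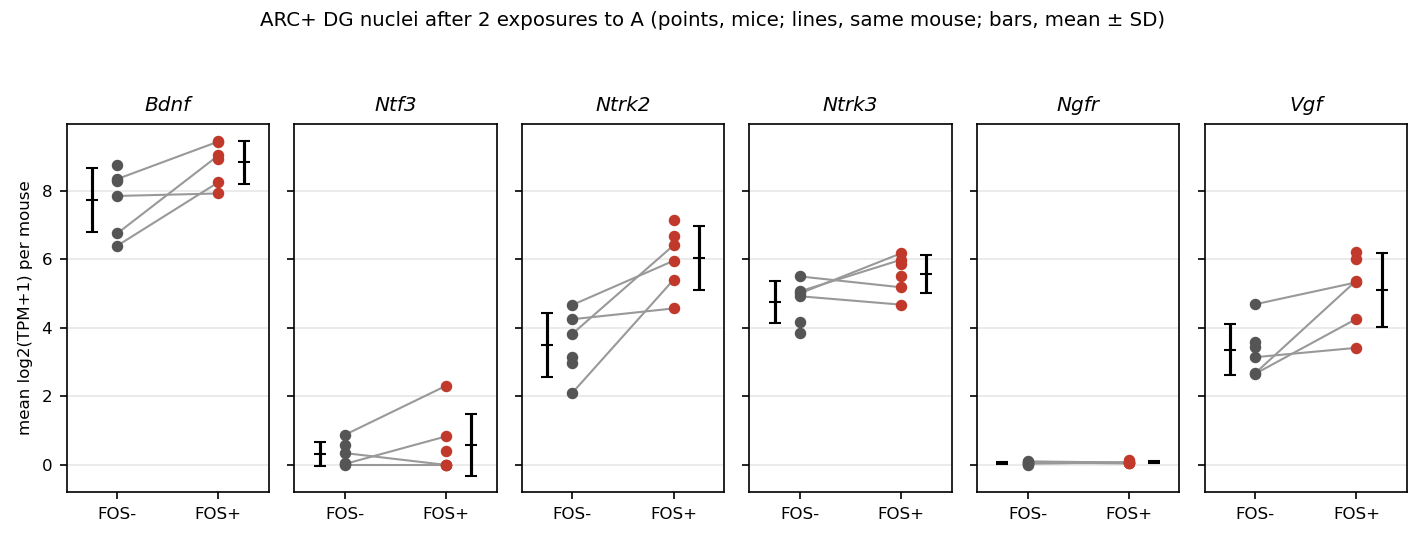
Mean log2(TPM+1) per mouse of the 6 members in A>A DG nuclei, FOS- against FOS+. Lines join the same mouse (24 to 27), and bars give the mean and SD over 6 mice per group. All 4 lines rise for Bdnf, Ntrk2 and Vgf, and 2 of 4 rise for Ntrk3.

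Bdnf was also higher on average in A>A FOS+ than in FOS- nuclei. Bdnf was 9.46, 8.92, 7.92, 9.43, 8.25 and 9.03 in FOS+ nuclei and 8.28, 8.75, 7.85, 8.34, 6.39 and 6.75 in FOS- nuclei, in the same order of mice. The values overlapped between groups, with means differing by 1.11 (exact permutation p = 0.039, n = 6 each). It did not pass without mouse 15, 16, 25, 26 or 27 (p from 0.0635 to 0.119, exact permutation). Within mice 24 to 27 the differences were 0.07, 1.09, 1.85 and 2.28. In nuclei the shift lay at the low end. FOS- nuclei above a level of 5 were 85.3% of 129, FOS+ nuclei 96.9% of 130, and the lower quartiles were 7.28 and 8.29, while the upper quartiles were 9.45 and 9.80. The sums, which nuclei with many reads dominate, differed by 0.31 ± 0.23 log2 (edgeR adjusted p = 0.634).

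After A>C, with 2 mice a group, Ntrk2 was 6.93 and 7.90 in FOS+ and 5.49 and 5.17 in FOS- nuclei, which did not overlap. Bdnf was 9.14 and 9.06 against 8.94 and 7.14. FOS+ nuclei came from other mice and another date than FOS- nuclei, so FOS state and date cannot be told apart there. The edgeR differences were 1.24 ± 0.49 (adjusted p = 0.899) for Ntrk2 and 0.60 ± 0.41 (adjusted p = 0.905) for Bdnf. No gene was called in this comparison (0%, with 1089 at an unadjusted p under 0.05, 1118 by DESeq2 and 86 by limma). The FOS difference of Ntrk2 in A>A minus that in A>C was -0.01 ± 0.56 log2 (SE), with 0% of genes called (1068 at an unadjusted p under 0.05, 779 by DESeq2, 0 by limma). Between FOS+ nuclei of A>A and A>C Ntrk2 differed by -0.71 ± 0.38 (edgeR adjusted p = 0.99), with 0% called (1206, 1154 and 1).

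Among the other cell types Ntrk2 was higher in VIP than in CA1 or Sub nuclei in the home cage. HC VIP nuclei held it at 7.02 ± 0.73 (SD, n = 3 mice, 22 of 22 nuclei), against 3.99 ± 0.35 in HC CA1 (n = 3) and 3.64 ± 0.49 in HC Sub (n = 2). HC VIP and HC CA1 mice did not overlap, and the edgeR difference of 2.52 ± 0.92 log2 did not pass (adjusted p = 0.56). At 1 h FOS- Ivy nuclei held it at 7.31 ± 1.17 (n = 3), and FOS+ VIP nuclei averaged below FOS+ CA1 and Sub nuclei. In VIP nuclei Ntrk2 was 5.58 and 5.66 in FOS- and 6.28 and 4.73 in FOS+ nuclei of the same 2 mice, with no common direction. The remaining FOS- VIP mouse, with 2 nuclei, was at 0.58. In CA1 the level was 5.12 ± 0.33 in FOS- and 6.00 ± 0.49 in FOS+ nuclei (n = 3), higher within each mouse by 1.80, 0.60 and 0.26. In CA3 the within-mouse differences were -0.28 and -0.35, opposite in sign to the difference of summed counts (1.51 ± 0.93 log2, SE). In Sub they were 2.67, 1.87 and -0.16, with FOS+ levels of 6.84, 7.45 and 5.79. None of these passed in edgeR.

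Vgf, an activity-regulated gene whose product is stored in secretory granules, ran from nearly undetected to abundant in the DG. In the home cage 3 of 25 nuclei held 11 reads in all, every one in mouse 6, and the means of mice 6 and 7 were 0.21 and 0.00. One hour after exposure the FOS- mean was 0.67, with 8 of 27 nuclei counted. The FOS+ mean was 6.50, with all 26 nuclei counted and a range from 1.67 to 9.61. The 4 h mice were at 4.64 and 3.65, and the 5 h mice at 4.83 and 4.74 (mice 8 and 9) and at 0.10 and 1.08 (mice 22 and 23). The 5 h mice thus split by library date, and the pair with the lower levels was that of mice 22 and 23. Mice 22 and 23 gave 10 and 6 nuclei, none of which passed the stricter nucleus filter. Every 1 h, 4 h and 5 h group mean exceeded that of HC, but 5 h mouse 22 lay under HC mouse 6.

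As pooled CPM, Vgf was 412 times the HC DG level in 1 h FOS+ nuclei (counting interval 230 to 825), 14.8 times in 1 h FOS- nuclei (8.26 to 29.6), 222 times at 4 h (124 to 446) and 132 times at 5 h (73.8 to 265). These intervals cover only the counting error of the 11 HC reads. They take those reads as independent and the other level as exact, and leave out the spread between nuclei and mice. The 1 h FOS- nuclei, all of 1 mouse, differed from HC by 4.09 ± 1.52 log2 (SE, edgeR). That difference did not pass, in a comparison that called 0.0041% of genes. Vgf rose against HC in 1 h FOS+ (edgeR adjusted p = 0.0238), 4 h (0.0381) and 5 h nuclei (0.0467). It passed in 17 of 20, 6 of 21 and 3 of 21 fits that left out a mouse, and without HC mouse 7 the adjusted p at 4 h was 0.497. Without HC mouse 6, which held all 11 reads, it missed the threshold in 1 h FOS+ nuclei (adjusted p = 0.0523), and without HC mouse 7 the adjusted p was 0.326. It also missed it without mouse 25 of the A>A group (0.0533), which shares the estimate of the spread. Against the FOS- nuclei of the same mouse it differed by 5.10 ± 2.02 log2 in edgeR (adjusted p = 1) and passed in DESeq2 (adjusted p = 0.0346).

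**Figure D4:**
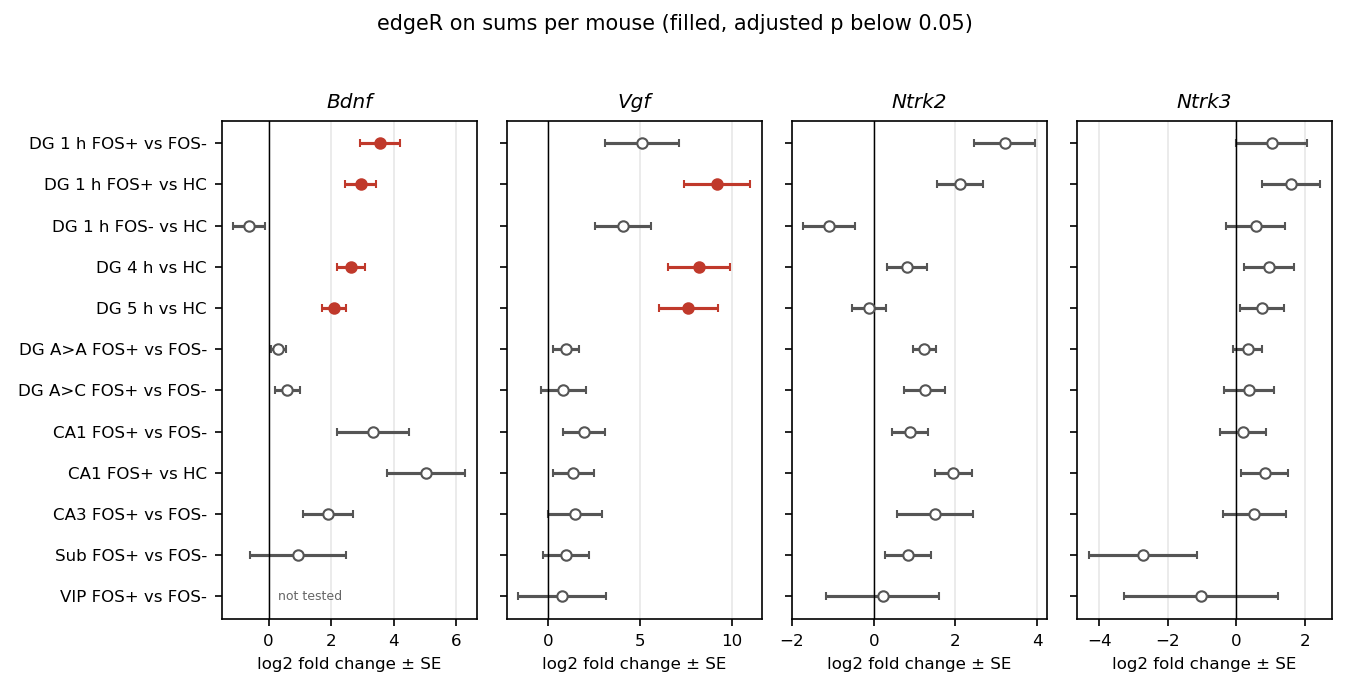
edgeR log2 fold changes with SE of Bdnf, Vgf, Ntrk2 and Ntrk3 in 12 comparisons of summed counts. Filled points have an adjusted p under 0.05. The filled points are Bdnf in 1 h FOS+ against FOS- nuclei and against HC and at both later times against HC, and Vgf against HC at 5 h, 4 h and in 1 h FOS+ nuclei.

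In A>A nuclei Vgf averaged 5.10 ± 1.07 in FOS+ and 3.36 ± 0.75 in FOS- nuclei (SD, n = 6 mice each). The FOS+ mice ranged from 3.42 to 6.21 and the FOS- mice from 2.66 to 4.69, overlapping. The difference was 1.73 (exact permutation p = 0.0173, not adjusted for the 6 members tested), and without mouse 27 the p was 0.0635 (exact permutation). Within mice 24 to 27 it was 0.27, 0.64, 1.60 and 2.70, positive in 4 of 4. By edgeR the A>A sums differed by 0.96 ± 0.70 log2 (SE), which did not pass (adjusted p = 0.609). In A>C Vgf was 5.31 and 5.61 in FOS+ and 4.76 and 3.92 in FOS- nuclei. Of the A>A FOS- nuclei 47 of 129 exceeded a level of 5, and no HC DG nucleus did.

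Vgf was the member with a FOS difference of the same sign in every cell type that could be compared within mice. In CA1 the FOS+ levels of 3.68, 3.04 and 4.39 exceeded FOS- levels of 1.90, 1.03 and 1.76. In CA3 FOS+ exceeded FOS- by 0.68 and 2.19, and in Sub by 0.49, 5.68 and 2.51. In VIP nuclei FOS+ levels were 5.32 and 4.43 against FOS- levels of 4.10 and 0.00, higher by 1.22 and 4.43. The median count total was 344915 in FOS- and 599311 in FOS+ VIP nuclei, and its part was not tested. None of the FOS differences of Vgf in these 4 types passed in edgeR. The VIP difference there was 0.77 ± 2.38 log2 and that in CA1 1.96 ± 1.14. Unlike Bdnf, Vgf was thus read from VIP interneurons, where 15 of 27 FOS+ nuclei exceeded a level of 5, against 5 of 17 FOS- and 6 of 22 HC nuclei.

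Ntrk3, the receptor of neurotrophin-3, was not called by edgeR in any comparison over all mice. In HC DG nuclei it was 5.45 and 3.01, and at 1 h 5.29 in FOS- and 5.84 in FOS+ nuclei. The later DG mice ran from 3.42 to 7.26. Its edgeR difference in 1 h FOS+ DG nuclei was 1.04 ± 1.04 log2 against FOS- and 1.60 ± 0.85 against HC. Without HC mouse 6, which leaves the 5 nuclei of mouse 7 as the HC group, Ntrk3 passed against HC in 1 h FOS+ nuclei (4.48 log2, edgeR adjusted p = 0.00978), at 4 h (3.84, adjusted p = 0.0154) and at 5 h (3.63, adjusted p = 0.0183). Without HC mouse 7 the 3 differences were 0.70, 0.06 and -0.15. In A>A nuclei it was 5.57 ± 0.56 in FOS+ and 4.75 ± 0.62 in FOS- (SD, n = 6 each, difference 0.81, exact permutation p = 0.0411), which did not pass without mouse 15, 16, 19, 20, 26 or 27 (p from 0.0584 to 0.0952). Within mice 24 to 27 it was -0.32, -0.25, 1.17 and 0.92, of both signs. By edgeR the A>A sums differed by 0.33 ± 0.42 log2 (SE), which did not pass (adjusted p = 0.851). The CA3 means were 5.17, 5.49 and 6.48 in HC, FOS- and FOS+ nuclei, and those of VIP nuclei 1.63, 3.38 and 2.33. In Sub Ntrk3 was lower in FOS+ nuclei of each mouse, with differences of -0.91, -6.04 and -0.37. The edgeR difference there, -2.73 ± 1.58 log2 (SE), did not pass (adjusted p = 0.732). In CA1, CA3 and VIP nuclei the within-mouse differences were of both signs. The lowest level with 5 nuclei or more was 0.33, in HC Th nuclei.

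Ngfr was near the limit of detection throughout. No group mean exceeded 0.53, that of HC CA3 with 2 nuclei, and DG groups lay between 0.04 and 0.14. At most 4 nuclei of a group were above a level of 1. No change could be seen at this level.

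The 37 other genes of the pathway list, which holds further ligands and receptors, processing enzymes and adaptors, are counted next. Of 33 tested in the DG, 1 passed against HC in 1 h FOS+ nuclei and again at both later times, beside 0.27%, 0.246% and 0.262% of all genes, and it was Lingo1, a co-receptor that partners p75 in the Nogo receptor complex. It rose by 5.80 ± 0.93 log2 at 1 h (edgeR adjusted p = 0.00566), 6.37 ± 0.91 at 4 h (adjusted p = 0.00182) and 4.93 ± 0.82 at 5 h (adjusted p = 0.0106). Against the 1 h FOS- nuclei it differed by 5.00 ± 1.20 (adjusted p = 0.298). For Lingo1 the fits without each mouse and with the stricter nuclei are not given here. No list gene fell past the threshold in any comparison. The list's median difference in 4 h against HC was 0.42, beside 0.23 for all genes tested and 1.47 for the members, and in 1 h FOS+ against FOS- 0.37 beside 0.00 and 2.12.

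Across 22 groups with at least 5 nuclei, the genes whose mean levels followed Bdnf most closely among 22219 were Abr, Ptgs2, Rtn4rl1 and Eif4a1 (Pearson r = 0.94 each) and Synpo (0.93). Ptgs2 encodes the inducible cyclooxygenase and Synpo the spine protein synaptopodin. Among the members r with Bdnf was 0.77 for Ntrk3, 0.51 for Vgf, 0.15 for Ntf3 and 0.11 for Ntrk2. The nearest to Ntf3 were Spata13 (0.90), Gmnc (0.89), Stxbp6 (0.87), Plk5 (0.86) and F730043M19Rik (0.85). The nearest to Ntrk2 was Dpysl5 (0.81), to Ntrk3 Wbscr17 and Lppr2 (0.89), and to Vgf Gpr3 (0.85). The groups share mice, libraries and cell types, so these values describe the groups only.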

How the data were processed

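Single hippocampal nuclei were sorted and sequenced one library each. The authors aligned reads to mm10 with Bowtie and estimated genes with RSEM (versions not given in the sources used here). They deposited gene-level expected counts and log2(TPM+1) values. Expected counts were summed per mouse and group (at least 2 nuclei) and rounded. No column was left without a sample.

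Nuclei with under 100000 aligned reads or 4000 genes above a log2(TPM+1) of 1 were dropped, as were HC and 1 h FOS- nuclei with Arc above 2.5. The sums entered edgeR 4.0.16 (quasi-likelihood, TMM, filterByExpr) in R 4.3.3, in 1 fit over 26 DG sums from 21 mice (24405 genes), 1 over 34 HC and 1 h sums of 5 cell types from 13 mice (22532 genes) and 1 each for CA1, CA3, Sub and VIP. SE is the absolute fold change over the root of F. A>A mice were also compared by exact permutation tests. DESeq2 1.42.0 and limma 3.58.1 served as alternatives, with other filters, size factors, sums, pseudocounts, cohorts and each mouse left out. Scripts used Python 3.11.15, pandas 2.3.3 and scipy 1.17.1, and the tests were tried on simulated data.

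FOS+ and FOS- nuclei of the same mouse are paired by the labels. Their deviations from the group means correlated at 0.0202 to 0.0732 over 14 pairs.

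The text names the 6 members everywhere, the genes of a 37-gene neurotrophin list that were called, the 5 genes most correlated with a member, and cell markers. The members and lists were chosen with earlier results of these data known.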

Additional observations from a re-analysis of the deposited data

Results flagged for a closer look

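Among 18 pairs of a member and a DG group of 4 or 6 mice, tested for a mouse apart from the rest, 1 stood out, where chance gives about 1 in 20. In A>A FOS+ DG nuclei the Ntf3 level of mouse 24 was 2.31, against at most 0.83 in the other 5 mice. The same mouse was also the highest of the A>A FOS- mice, at 0.88, with 5 of 21 nuclei counted.

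The HC CA1 nuclei left out for their Arc level, 16 nuclei from 2 mice, held higher levels of Ntrk2, Ntrk3 and Vgf than the 19 nuclei used. Ntrk2 was 5.24 against 3.90, Ntrk3 5.51 against 4.21 and Vgf 3.69 against 1.95, as means over nuclei. All 16 left-out nuclei were above a level of 1 for Ntrk2, against 16 of 19 of those used. Bdnf was 1.95 against 1.51. In 1 h FOS- CA1 the 11 left-out nuclei were mostly lower than the 21 used, at 4.55 against 4.95 for Ntrk2, 0.90 against 1.67 for Vgf and 1.02 against 2.21 for Bdnf, and 4.92 against 4.57 for Ntrk3. In HC Sub the 4 left-out nuclei had 6.16 against 3.64 for Ntrk2, 4.08 against 2.11 for Vgf, 0.51 against 1.72 for Bdnf and 0.71 against 3.59 for Ntrk3. These nuclei were chosen by an expressed gene, so the differences were not tested.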

How the results depend on the processing

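The number of members called moved as follows, with the number of all genes called in brackets. The DG fit tested 24405 genes in edgeR and 12388 in limma. DESeq2 tested 17152 in the 1 h FOS+ against FOS- comparison and 19385 in A>A. In 1 h FOS+ against FOS- DG nuclei 1 member was called (11). The number was 0 with DESeq2's size factors (7), without the low-count filter (9) and with 200000 reads and 5000 genes (1). It was also 0 with mice 19 and 20 split by library date (5) and under a replicate block by mouse (0), and 3 with DESeq2 (1050). Against HC, 2 were called in 1 h FOS+ nuclei (66), and 1 with the stricter nuclei (41) or without the second A>A cohort (49). At 4 h 2 were called (60), and 1 under the same changes (18 and 38) or DESeq2's size factors (38). At 5 h 2 were called (64). The number was 1 with the stricter nuclei (13), without the second A>A cohort (29) or without the low-count filter (45). It was also 1 with the Arc-high nuclei kept (41), with the split (36) or with limma on log2 of the mean TPM (223). In A>A FOS+ against FOS- 0 were called (10), and 1 with DESeq2 (878) or with limma on mean log2(TPM+1) (342) or log2(TPM+0.1) (340). In HC nuclei, DG against CA1 gave 0 (7), and 2 with DESeq2 (877) or the same 2 limma fits (43 and 49). VIP against CA1 gave 0 (15), 1 with sums of at least 5 nuclei (9) and 2 with DESeq2 (1293). DG against VIP gave 1 (27), and 2 with DESeq2 (1410) or any limma fit (118 to 128). CA1 FOS+ against HC gave 0 (0), and 1 with DESeq2 (244). Leaving out each mouse gave 0 to 1 (1 h FOS+ against FOS-), 0 to 2 (each comparison with HC) and 0 to 1 (DG against VIP). Sums of at least 5 nuclei gave no value for Sub.

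In the A>A exact permutation tests of mean levels, the mouse as a replicate block gave 1.32 for Bdnf and 1.87 for Ntrk2 and 1.30 for Vgf (p = 0.125 each, the smallest 4 pairs allow), 0.38 for Ntrk3 (p = 0.5) and a reversed -0.011 for Ngfr (p = 0.625). As a share of nuclei with a count, the difference was 1.42 percentage points for Bdnf (p = 0.455), 5.53 for Ntrk2 (p = 0.165) and 0.47 for Ntrk3 (p = 0.883). Bdnf gave 0.87 with mice 19 and 20 split by date (p = 0.0746), and Ntrk3 0.74 in thinned nuclei (p = 0.117). Leaving out each mouse gave 0.87 to 1.31 for Bdnf, 0.64 to 1.04 for Ntrk3 and 1.51 to 2.03 for Vgf. The block changed no other call. The causes of these changes were not tested.

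Over all genes, 11, 66, 60, 64 and 10 were called in 1 h FOS+ against FOS-, in 1 h FOS+ against HC, at 4 h, at 5 h, and in A>A. The stricter nuclei gave 1, 41, 18, 13 and 3, DESeq2 1050, 1776, 1011, 1987 and 878, and limma on mean log2(TPM+1) 94, 544, 564, 1517 and 342. In HC nuclei 7, 15 and 27 genes were called in DG against CA1, VIP against CA1 and DG against VIP, 877, 1293 and 1410 with DESeq2 and 43, 80 and 128 with that limma fit. CA1 FOS+ against HC gave 0, and 244 with DESeq2. Both 1 h DG groups are 1 mouse, HC DG rests on 2 mice and 23 nuclei, and 5 h nuclei had a median count total of 426841, which limits detection of Ngfr, Ntf3 and Vgf there.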

Other observations

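Within the ARC+ FOS- DG nuclei, Bdnf varied with Arc from nucleus to nucleus. At 4 h the Pearson r of their log2(TPM+1) values was 0.77 over 68 nuclei of 2 mice. It was 0.61 in A>C FOS- (46 nuclei), 0.44 in A>A FOS- (129 nuclei) and 0.33 at 5 h, against 0.22 in 1 h FOS+ and -0.14 in A>C FOS+ nuclei. Nuclei of a mouse share libraries and depth, so these are descriptions without a test.

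In each of the 6 later DG groups the few nuclei with Ntf3 above a level of 1 had a lower Bdnf median than the rest. The Bdnf medians were 5.31 in 6 such nuclei against 9.61 in 62 others at 4 h, 4.49 in 6 against 8.82 in 40 in A>C FOS-, and 6.40 in 4 against 8.93 in 55 at 5 h. The gaps were smaller in A>A FOS- (7.27 in 6 against 8.68 in 123), A>A FOS+ (8.59 in 11 against 9.21 in 119) and A>C FOS+ (9.11 in 5 against 9.28 in 43). In HC nuclei they were 7.51 in 11 with Ntf3 and 6.99 in 14 without, and in 1 h FOS- nuclei 1.82 in 15 and 0.92 in 12, both in the other order. In 1 h FOS+ nuclei they were 9.18 in 2 and 10.03 in 24.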
